A study of Mus musculus with 18 samples.

Results

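The genes of the major histocompatibility complex (MHC) and of antigen presentation were followed in RNAseq data from the mouse dorsal spinal cord. They were taken by name: every gene whose name starts with H2-, together with B2m, Tap1, Tap2, Tapbp, Psmb8, Psmb9, Psmb10, Nlrc5, Ciita and Cd74. The search found 37 of the 18182 single gene names in the tables, 28 of them H2- genes, and Tapbp was not analysed here. They comprised 19 class I heavy chain genes, 9 class II genes and 9 accessory genes, and 32 of the 37 lie on chromosome 17. The class I set includes 4 genes annotated as pseudogenes, namely H2-K2 and, as polymorphic pseudogenes, H2-Bl, H2-Q5 and H2-T10. A name with several loci was represented by the locus with the highest mean level, which applied to 8 names. A mean of at least 0.5 FPKM (a read level corrected for exon length and sequencing depth) over the groups was reached by 34 of the 37, namely 17 class I, 8 class II and 9 accessory genes. The class I genes H2-M1 and H2-M5 and the class II gene H2-Eb2 fell below it.

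MHC class I molecules are made by most nucleated cells and show peptides from the cell's own proteins to CD8+ T cells. A class I heavy chain pairs with the light chain B2m, and its peptides are cut by the proteasome and carried into the endoplasmic reticulum by the transporter Tap1-Tap2. MHC class II molecules are made by professional antigen-presenting cells, in the spinal cord mainly by activated microglia, macrophages and infiltrating leukocytes, and show peptides taken up from outside to CD4+ T cells. Interferons raise both systems, class I through the transactivator Nlrc5 and class II through the transactivator Ciita.

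The tissue came from the dorsal L3-L5 segments of C57BL/6 mice (C57BL/6N in the methods of the study) aged 3 months, 3 mice in each of 6 groups. All mice had received an intraspinal injection of a recombinant adeno-associated virus (rAAV), so that no group was free of a vector. The vector carried LacZ (β-galactosidase) as its control cargo, the wild-type form of HDAC4 (called HDAC4 wt), or HDAC4 3SA, a mutant that stays in the nucleus because sites needed for its export are changed. Each vector was combined with intraplantar saline or with intraplantar complete Freund's adjuvant (CFA), which inflames the hindpaw, and tissue was taken after 24 h. As the study's vector drawing has it, LacZ was driven by a CMV promoter, whereas both HDAC4 forms were driven by a promoter labelled Syn, and all carried a Flag tag. The study asked how nuclear HDAC4 alters the spinal response to paw inflammation.

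The deposited tables give 1 FPKM value per group, estimated by the authors over its 3 mice. There are therefore no values per mouse and no SD. The p-values of the authors were not used and no test was made, the depth of each library is not in the tables, and a difference is called where the log2 ratio with 0.1 FPKM added passes 0.5 in either direction (1.41-fold). Each vector was normalised in its own run, so that cargo, promoter and run cannot be told apart between LacZ and the HDAC4 vectors and levels across vectors are given as a description. Hdac4 itself had 7.41 and 7.72 FPKM (saline and CFA) with LacZ, 10.1 and 10.8 FPKM with HDAC4 wt and 8.86 and 8.81 FPKM with HDAC4 3SA. Over all 15741 genes that reached the minimum, the median log2 ratio after CFA was 0.01 with LacZ, 0.00 with HDAC4 wt and 0.01 with HDAC4 3SA.

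Many MHC promoters carry a shared module in which an X2 box (TGACG) precedes a Y box (ATTGG), the sites through which Ciita and Nlrc5 act with their partner proteins. A RefSeq promoter on GRCm38.p6 was at hand for 26 of the 37 genes. The 250 bases before the start of transcription are shown for the classical class I genes H2-K1 (chr17:34000334-34000583, minus strand, the more downstream of 2 annotated starts) and H2-D1 (chr17:35262844-35263093, plus strand). They are shown beside B2m (chr2:122147437-122147686, plus strand) and the class II genes H2-Aa (chr17:34287824-34288073, minus strand) and H2-Eb1 (chr17:34305617-34305866, plus strand), since these genes carry the comparison of class I with class II. Capitals mark TGACG and ATTGG as well as the κB-like GGGGATTCC and the interferon-response-like GAAANNGAAA on either strand.
H2-K1: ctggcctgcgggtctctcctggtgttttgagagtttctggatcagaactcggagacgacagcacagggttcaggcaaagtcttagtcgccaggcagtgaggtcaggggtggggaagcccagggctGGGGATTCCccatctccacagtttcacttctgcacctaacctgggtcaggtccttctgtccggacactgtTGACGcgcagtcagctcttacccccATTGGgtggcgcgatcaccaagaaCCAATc
H2-D1: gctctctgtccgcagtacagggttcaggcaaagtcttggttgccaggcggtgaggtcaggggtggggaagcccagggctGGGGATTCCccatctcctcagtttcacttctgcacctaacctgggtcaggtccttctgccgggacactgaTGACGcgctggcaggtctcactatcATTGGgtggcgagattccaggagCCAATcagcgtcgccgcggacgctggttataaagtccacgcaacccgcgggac
B2m: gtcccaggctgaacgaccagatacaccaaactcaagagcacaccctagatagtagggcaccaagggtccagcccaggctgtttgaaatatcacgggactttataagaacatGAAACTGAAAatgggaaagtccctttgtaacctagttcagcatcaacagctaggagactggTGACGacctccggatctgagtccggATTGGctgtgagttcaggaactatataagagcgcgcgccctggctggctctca
H2-Aa: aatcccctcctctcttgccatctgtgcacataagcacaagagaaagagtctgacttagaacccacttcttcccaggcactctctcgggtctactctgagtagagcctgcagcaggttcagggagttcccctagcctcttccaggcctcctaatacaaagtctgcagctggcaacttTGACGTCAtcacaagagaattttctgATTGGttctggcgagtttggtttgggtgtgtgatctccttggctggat
H2-Eb1: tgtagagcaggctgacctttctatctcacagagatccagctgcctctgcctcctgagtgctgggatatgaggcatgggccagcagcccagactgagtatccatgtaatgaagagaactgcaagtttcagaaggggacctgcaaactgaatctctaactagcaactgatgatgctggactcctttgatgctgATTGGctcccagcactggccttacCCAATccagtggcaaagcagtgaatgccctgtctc
TGACG followed by ATTGG on the coding strand, with starts 24 to 26 bases apart, was found in 6 of the 26 promoters (H2-K1, H2-D1, H2-M3, H2-Q7, B2m and H2-Aa) and in 0.103% of all 32851 promoters. The starts were 25 bases apart in H2-K1, H2-D1 and B2m and 26 bases apart in H2-Aa, where TGACG overlaps its own reverse complement. H2-Eb1 held ATTGG 59 bases before its start without a TGACG. The Y-box letters ATTGG alone were found in 22 of the 26 promoters and in 33.8% of all promoters, and TGACG alone in 11 and in 17.8% of all. GGGGATTCC was found in 4 class I promoters (H2-K1, H2-D1, H2-Q6 and H2-Q7) and in 0 of the 8 class II promoters, against 0.213% of all promoters. GAAANNGAAA was found in B2m, H2-T22 and H2-T23, against 2.98% of all promoters. These matches describe exact letters, not bound sites, and a box written with other letters was not counted.

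Both classical class I genes were called higher after CFA with LacZ and HDAC4 3SA, and neither was with HDAC4 wt. H2-K1, on chromosome 17 from 33996008 to 34000419, had 24.8 (saline) and 39.4 FPKM (CFA) with LacZ. With HDAC4 wt its levels were 278 and 385 FPKM, and with HDAC4 3SA 185 and 322 FPKM. The log2 ratio of CFA over saline was 0.67 with LacZ, 0.47 with HDAC4 wt and 0.80 with HDAC4 3SA, so that only the HDAC4 wt value stayed within the threshold. H2-D1 (35262342 to 35267499) had 39.2 and 58.9 FPKM with LacZ, 322 and 449 FPKM with HDAC4 wt and 223 and 379 FPKM with HDAC4 3SA. Its log2 ratios of 0.59, 0.48 and 0.77 followed the order of H2-K1, the HDAC4 wt value again within the threshold. B2m, the light chain shared by all class I molecules (chromosome 2, 122147615 to 122153967), had 50.1 and 69.0 FPKM with LacZ, 433 and 561 FPKM with HDAC4 wt and 306 and 514 FPKM with HDAC4 3SA. Its log2 ratio passed the threshold with HDAC4 3SA (0.75) but not with LacZ (0.46) or HDAC4 wt mice (0.37).

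The classical class II genes above the minimum had larger log2 ratios after CFA with LacZ than H2-K1 and H2-D1. Ratios of similar size were seen for the class I genes H2-Q1 (1.36), H2-Q6 (1.05) and H2-Q10 (1.02, from 0.128 to 0.362 FPKM). The class I median was 0.40. H2-Aa, the α chain of I-A (34282649 to 34287827), had 7.65 (saline) and 17.4 FPKM (CFA) with LacZ, 157 and 205 FPKM with HDAC4 wt and 77.3 and 120 FPKM with HDAC4 3SA. H2-Ab1, its β chain (34263146 to 34269509), had 6.87 and 15.6 FPKM with LacZ, 113 and 141 FPKM with HDAC4 wt and 54.4 and 86.0 FPKM with HDAC4 3SA. H2-Eb1, the β chain of I-E (34305877 to 34316670), had 5.33 and 12.2 FPKM with LacZ, 84.4 and 105 FPKM with HDAC4 wt and 40.8 and 61.0 FPKM with HDAC4 3SA. The CFA value was thus higher than the saline value for each chain with each vector. The log2 ratios lay together at 1.17, 1.17 and 1.18 with LacZ, at 0.38, 0.32 and 0.31 with HDAC4 wt and at 0.63, 0.66 and 0.58 with HDAC4 3SA. Cd74, the invariant chain that guards the class II groove (chromosome 18, 60803799 to 60812658), had 17.8 and 43.5 FPKM with LacZ, 397 and 540 FPKM with HDAC4 wt and 204 and 332 FPKM with HDAC4 3SA. Its log2 ratios of 1.29, 0.44 and 0.71 had the order of the class II chains.

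**Figure D1:**
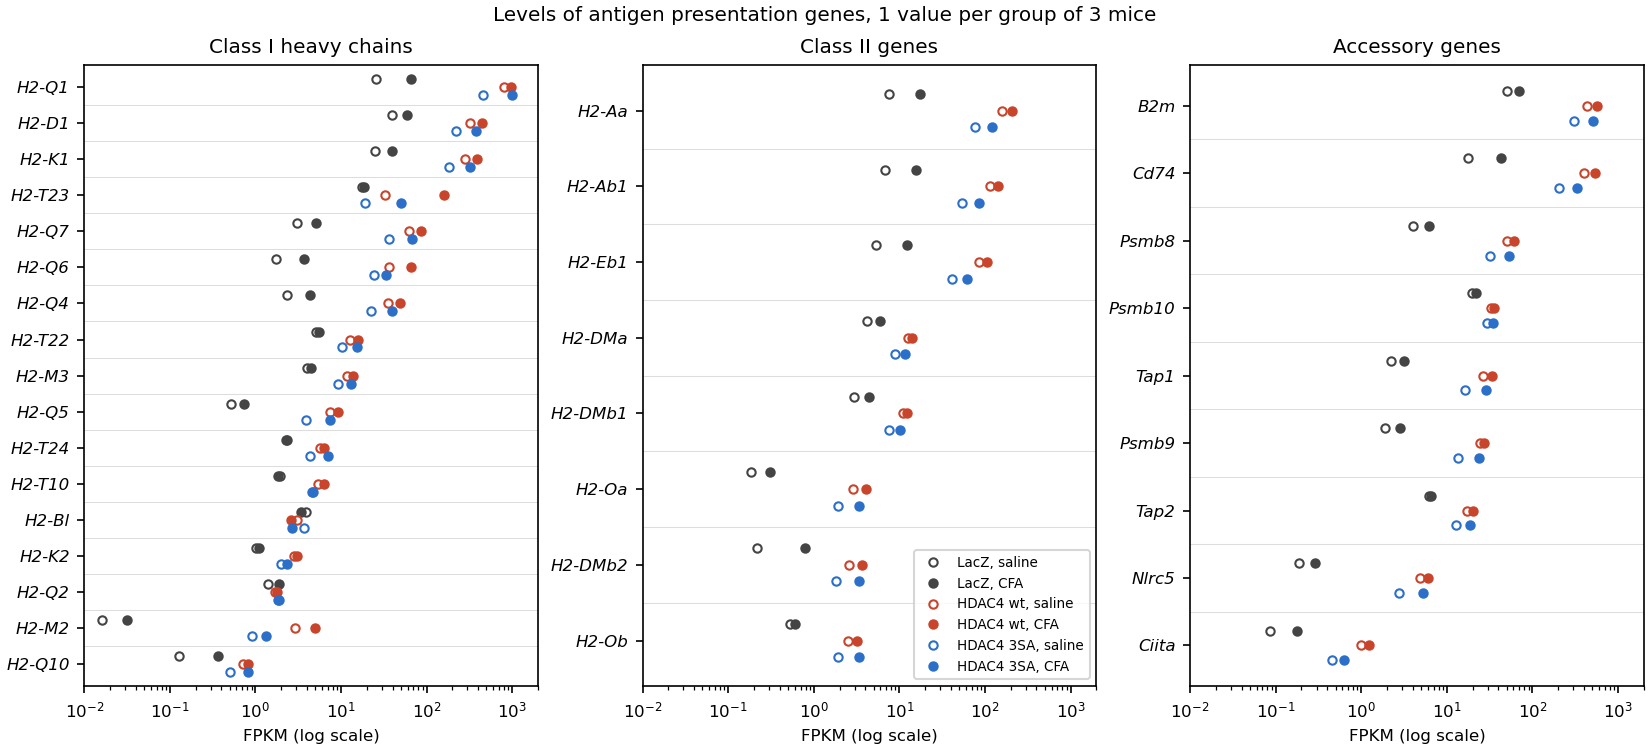
FPKM of the 34 genes (x axis, log scale) by class, with open circles for saline and filled circles for CFA, coloured by vector; each circle is 1 value for a group of 3 mice. LacZ values of H2-Aa run from 7.65 to 17.4 FPKM, while all HDAC4 wt and HDAC4 3SA values lie at or above 77.3 FPKM.

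Among the genes of class II peptide exchange, H2-DMa, H2-DMb1, H2-Oa and H2-Ob had smaller ratios with LacZ than the 3 classical chains above the minimum, and H2-DMb2 had a larger one. H2-DMa and H2-DMb1, which together swap the invariant chain remnant for a peptide, had 4.19 and 2.96 FPKM after saline and 6.00 and 4.46 FPKM after CFA with LacZ. Their log2 ratios were 0.51 and 0.58 with LacZ, 0.14 and 0.16 with HDAC4 wt and 0.39 and 0.40 with HDAC4 3SA. H2-Oa and H2-Ob, the subunits of H2-O, which restrains that exchange and is best known in B cells, stayed at or below 4.07 FPKM in every group. H2-Oa had log2 ratios of 0.51, 0.51 and 0.78 and H2-Ob of 0.17, 0.34 and 0.78 with LacZ, HDAC4 wt and HDAC4 3SA. H2-DMb2 had the highest ratio of the class with LacZ (1.498, 0.215 to 0.789 FPKM), but its locus holds only 11.3% of the annotated exon bases and its transcripts share 24.8% of their 50-base windows with other genes.

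Counted over the 34 genes, CFA was followed by a higher level of 18 genes with LacZ, 5 with HDAC4 wt and 25 with HDAC4 3SA. Over all 15741 genes the shares called higher were 4.43%, 4.75% and 8.81%. Beyond a log2 ratio of 1 the counts of the 34 were 8, 1 and 2, so that LacZ and not HDAC4 3SA had the most. The share of all genes beyond 1 was not computed. None of the 34 was called lower with any vector, where 2.24%, 3.06% and 3.23% of all genes were, and because nothing was tested these counts carry no p. The median log2 ratios of the 34 were 0.51, 0.30 and 0.68. With LacZ 7 of 17 class I genes (median 0.40) and 7 of 8 class II genes (median 0.87) were called higher. With HDAC4 wt 3 of 17 (0.30) and 2 of 8 (0.33) were called, and with HDAC4 3SA 12 of 17 (0.59) and 6 of 8 (0.65). The class II median was the higher with LacZ under all 9 settings tried, with HDAC4 wt under 8 and with HDAC4 3SA under 6 of the 9, so that the order of the class medians held under every setting for LacZ alone.

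The 5 genes called with HDAC4 wt were H2-T23 (2.27), H2-Q6 (0.86), H2-M2 (0.78), H2-Oa (0.51) and H2-DMb2 (0.50). The call of H2-T23 ends with the other of its 2 loci (0.46), which leaves 4. Just outside the threshold lay H2-D1 (0.48), H2-Q4 (0.47) and H2-K1 (0.47), so that the small HDAC4 wt count depends on where the threshold stands. With HDAC4 3SA H2-M3 (0.50) and H2-M2 (0.51) lay just inside and H2-Q6 (0.48) just outside.

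**Figure D2:**
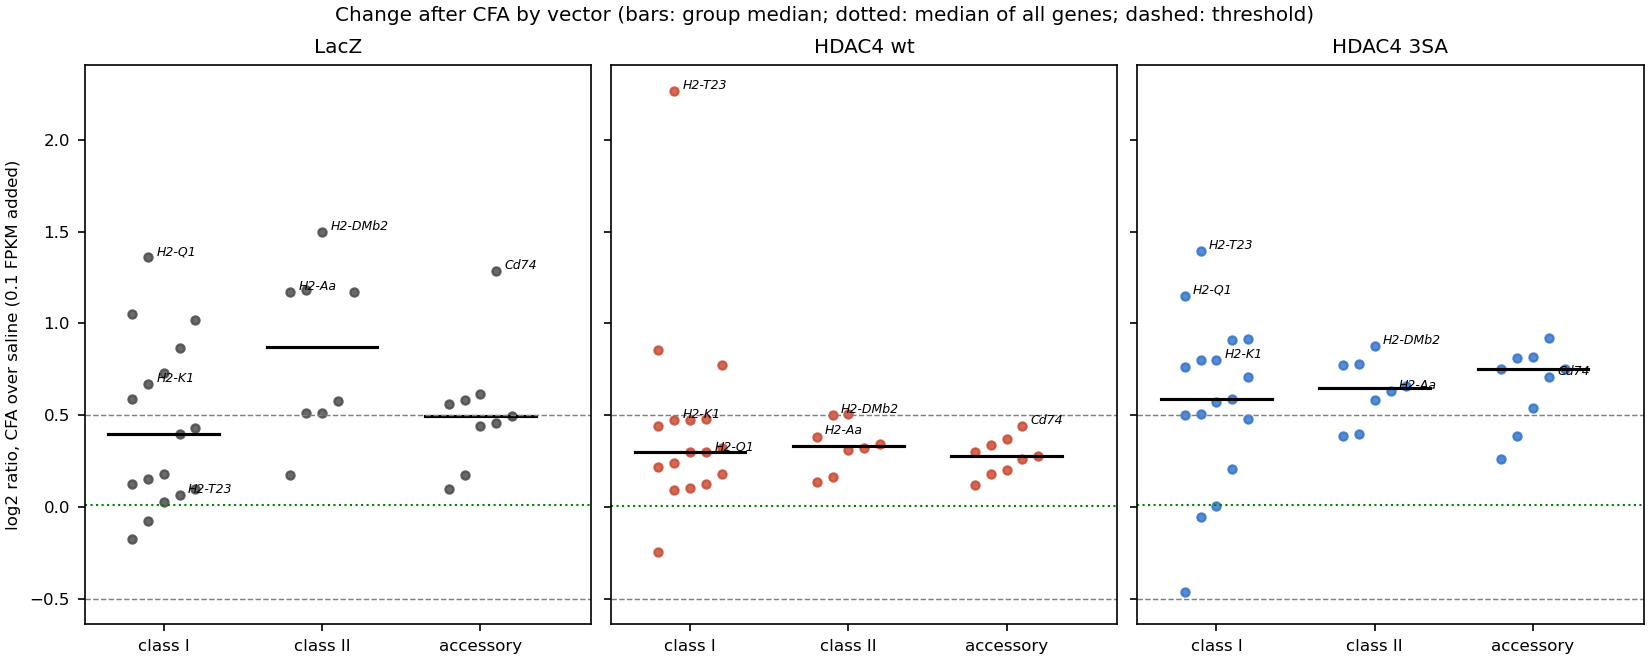
Log2 ratio of CFA over saline (y axis, 0.1 FPKM added) for each of the 34 genes by class and vector; black bars are medians of a class, the dotted line is the median of all genes and dashed lines are the threshold of 0.5. The class II median with LacZ (0.87) stands above the class I median (0.40), whereas the medians lie at 0.33 and 0.30 with HDAC4 wt.

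A ratio of genes within a group does not depend on how a run was scaled. The geometric mean of H2-Aa, H2-Ab1 and H2-Eb1 over that of H2-K1 and H2-D1 was 0.210 after saline and 0.309 after CFA with LacZ. It was 0.383 and 0.348 with HDAC4 wt and 0.274 and 0.245 with HDAC4 3SA. The class II share of the classical MHC signal was thus larger after CFA with LacZ and slightly smaller after CFA in both HDAC4 groups. On the log2 scale, the mean change of the class II chains exceeded that of the class I chains by 0.55 with LacZ, and the difference was -0.14 with HDAC4 wt and -0.16 with HDAC4 3SA. With no minimum level, which adds H2-Eb2 (log2 ratio 0.15 with LacZ) as another classical class II gene, the LacZ difference became 0.29. Cd74 over B2m gave 0.354 and 0.630 with LacZ, 0.917 and 0.963 with HDAC4 wt and 0.666 and 0.646 with HDAC4 3SA. H2-Aa over H2-Ab1, which encode the partners of one heterodimer, was 1.11 in both LacZ groups and between 1.39 and 1.45 in the HDAC4 groups.

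The peptide supply of class I was described next. Psmb8, Psmb9 and Psmb10 replace the constitutive subunits Psmb5, Psmb6 and Psmb7 in the immunoproteasome. Psmb8 had 4.04 and 6.22 FPKM with LacZ, 50.2 and 61.7 FPKM with HDAC4 wt and 31.7 and 53.5 FPKM with HDAC4 3SA, with log2 ratios after CFA of 0.61, 0.30 and 0.75. Psmb9 had 1.91 and 2.86 FPKM, 24.2 and 27.4 FPKM, and 13.3 and 23.5 FPKM in the same order, with log2 ratios of 0.56, 0.18 and 0.81. Psmb10, the subunit with the highest LacZ level, moved least, from 19.6 to 22.1 FPKM with LacZ, 33.1 to 36.0 FPKM with HDAC4 wt and 29.2 to 35.1 FPKM with HDAC4 3SA. None of Psmb5, Psmb6 and Psmb7 was called in any comparison. The ratio of Psmb8 to Psmb5 was 0.0620 and 0.0913 with LacZ, 0.830 and 1.01 with HDAC4 wt and 0.505 and 0.829 with HDAC4 3SA, so that only in HDAC4 mice did the immune subunit approach the level of its counterpart. Psmb9 to Psmb6 ran from 0.0233 to 0.308 over the groups, and Psmb10 to Psmb7 from 0.148 to 0.286.

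**Figure D3:**
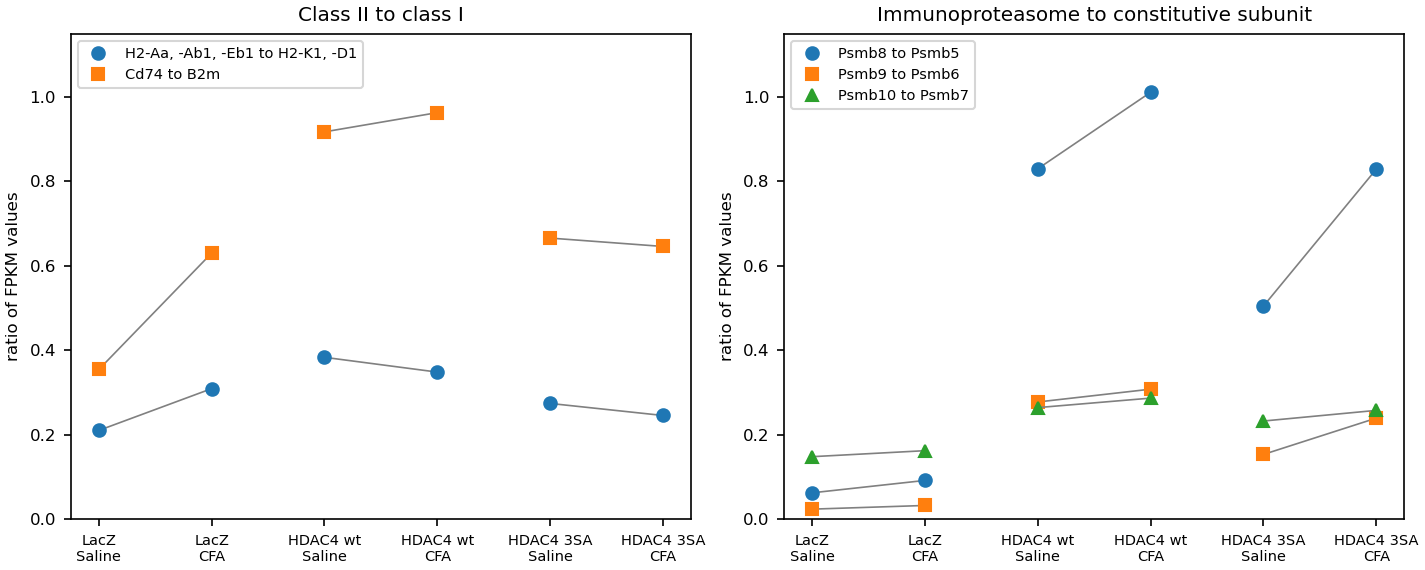
Ratios of FPKM values within each of the 6 groups (1 point per group, lines join saline and CFA of a vector), for class II to class I genes on the left and immunoproteasome to constitutive subunits on the right. The class II to class I ratio goes from 0.210 to 0.309 with LacZ only, and Psmb8 to Psmb5 goes from 0.0620 in LacZ saline to 1.01 in HDAC4 wt CFA.

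Tap1 and Tap2 form one transporter but differed in their values. Tap1, whose locus spans the same interval as Psmb9 (34181962 to 34197243), had 2.21 and 3.16 FPKM with LacZ, 26.3 and 33.4 FPKM with HDAC4 wt and 16.4 and 28.9 FPKM with HDAC4 3SA. Tap2 had 6.17 and 6.60 FPKM, 17.4 and 20.02 FPKM, and 12.7 and 18.6 FPKM. Tap1 over Tap2 was 0.358 in LacZ saline and lay between 1.29 and 1.67 in the HDAC4 groups. Among the transactivators, Nlrc5 had 0.186 and 0.288 FPKM with LacZ, 4.90 and 5.96 FPKM with HDAC4 wt and 2.74 and 5.26 FPKM with HDAC4 3SA. Its log2 ratio after CFA passed the threshold with HDAC4 3SA alone (0.92, against 0.44 with LacZ and 0.28 with HDAC4 wt). Ciita, split over 6 loci, had at its main locus 0.0861 and 0.179 FPKM with LacZ, 1.001 and 1.22 FPKM with HDAC4 wt and 0.453 and 0.624 FPKM with HDAC4 3SA, levels at which the added 0.1 FPKM weighs on the ratio. At other loci of Ciita the direction differed. One had 0.520 and 0.193 FPKM with LacZ, 0.189 and 0.164 FPKM with HDAC4 wt and 0.0575 and 0.0981 FPKM with HDAC4 3SA. Another had 0.394 and 0.140 FPKM, 0.131 and 0.178 FPKM, and 0.144 and 0.180 FPKM in the same order. A further locus was higher after CFA with every vector, at 0.0379 and 0.143 FPKM, 0.365 and 0.711 FPKM, and 0.117 and 0.306 FPKM. The remaining loci were higher after CFA with some vectors and lower with others. The calls of Ciita given here are those of its main locus. That locus has the highest mean only through the HDAC4 groups, and in LacZ saline it lay below the loci with 0.520 and 0.394 FPKM. With the loci of each name summed, 17 genes were called higher after CFA with LacZ. With HDAC4 wt over LacZ after saline 31 were then called higher.

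Levels in HDAC4 mice stood far above those with LacZ, already after saline. With HDAC4 wt 32 of the 34 genes were called higher than with LacZ after saline (median log2 ratio 3.09) and 32 after CFA (3.05), against 15.7% of all genes after saline and 15.7% after CFA. With HDAC4 3SA 31 were called after saline (2.60) and 32 after CFA (2.39), against 12.6% and 16.8% of all genes. None was called lower, where with HDAC4 wt 5.48% of all genes were after saline and 5.36% after CFA. With HDAC4 3SA the shares of all genes called lower were 3.95% and 6.9%. Nlrc5, Ciita, H2-M2, H2-Q10 and H2-Oa lay below 0.5 FPKM in both LacZ groups and were kept only through the HDAC4 groups, so that the minimum itself favoured a higher level there. The median over all genes was 0.07 for HDAC4 wt and 0.05 for HDAC4 3SA over LacZ after saline. After saline the class II chains stood 20.3-fold (H2-Aa), 16.3-fold (H2-Ab1) and 15.6-fold (H2-Eb1) higher with HDAC4 wt than with LacZ, and Cd74 22.3-fold. H2-K1 and H2-D1 stood 11.2-fold and 8.19-fold higher, B2m 8.63-fold, Psmb8 12.2-fold and Psmb9 12.1-fold. Nlrc5 stood 17.5-fold higher, from a LacZ level of 0.186 FPKM at which the added 0.1 FPKM weighs on the fold. With HDAC4 3SA the folds were 9.998 for H2-Aa, 7.44 for H2-K1, 6.09 for B2m and 11.4 for Cd74. H2-Bl and H2-Q2 were the members without a call in either HDAC4 group.

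The class I genes did not move as one block between vectors. Beside H2-K1 and H2-D1, H2-Q4, H2-Q6, H2-Q7 and H2-Q1, of the Q region, were 14.6- to 30.9-fold higher with HDAC4 wt than with LacZ after saline. H2-T22, H2-T24, H2-T10, H2-M3 and H2-K2 were 2.45- to 2.92-fold higher. Within the Q region, H2-Q2 was 1.18-fold higher and H2-Q5 had 0.522 and 7.36 FPKM (LacZ and HDAC4 wt after saline). H2-Q10 had 0.128 and 0.709 FPKM, and H2-M2, of the M region, 0.0163 and 2.88 FPKM, levels at which the added 0.1 FPKM sets much of the fold. The class I median of 1.83 (15 of 17 called) stood beside a class II median of 3.22 (8 of 8 called). With the other of the 2 loci named H2-T23 in place of the one used here, the class I median became 3.03. For HDAC4 3SA over LacZ the medians were 1.40 (14 of 17) and 2.72 (8 of 8) after saline, with 2.43 for class I under that change of locus. After CFA the medians were 2.93 for class I and 2.66 for class II with HDAC4 wt, and 1.57 and 2.31 with HDAC4 3SA. The HDAC4 3SA class I median became 2.68 with the other H2-T23 locus, which put it above class II.

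After saline most of the 34 genes had lower levels with HDAC4 3SA than with HDAC4 wt, with the lowest ratios for H2-M2 (-1.56), H2-Ab1 (-1.06) and H2-Eb1 (-1.05). After saline 21 of the 34 genes were called lower with HDAC4 3SA than with HDAC4 wt (median log2 ratio -0.55), against 4.75% of all genes. After CFA 8 were called lower (-0.24), against 4.01%, and 26 lay within the threshold, 5 of them with a ratio above 0. None was called higher after saline or after CFA, where 2.58% and 3.57% of all genes were. The 8 were H2-Aa (-0.77), H2-Ab1 (-0.72), H2-Eb1 (-0.78), Cd74 (-0.70), Ciita (-0.86), H2-T23 (-1.64), H2-Q6 and H2-M2. With the other H2-T23 locus, at -0.28, that call ends and 7 remain. For H2-K1, H2-D1 and B2m the log2 ratios after CFA were -0.26, -0.25 and -0.13, within the threshold.

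Similar genes and antisense transcription limit some of the class I values. H2-Q1 was listed with the highest class I level in every group but LacZ saline, where H2-D1 was higher (39.2 FPKM), with 25.7 and 66.1 FPKM with LacZ, 796 and 979.6 FPKM with HDAC4 wt and 451 and 1001 FPKM with HDAC4 3SA. It made up 19.1% of the summed class I level in LacZ saline and 51.3% in HDAC4 3SA CFA. Its locus, from 35324086 to 35324901, is 816 bp long and holds 28.5% of the annotated exon bases, and 15.0% of the 50-base windows of its transcripts occur in other genes. The shared share was 36.4% for H2-Q5, 32.0% for H2-Q6, 34.5% for H2-T22, 12.8% for H2-D1 and 9.63% for H2-K1, and 0% for B2m and Cd74. How reads were split among similar class I genes is thus uncertain, while the class II chain H2-Aa shares 0.488% of its windows and H2-Ab1 and H2-Eb1 share none.

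H2-T23, the gene of Qa-1 (36029760 to 36032841), has 2 loci with the same span. The one with the higher mean had 17.7 and 18.5 FPKM with LacZ, 32.7 and 158 FPKM with HDAC4 wt and 19.2 and 50.7 FPKM with HDAC4 3SA. It lies among the loci of the plus strand, whereas H2-T23 is on the minus strand and the antisense gene A930015D03Rik overlaps it on the plus strand. The other locus, among those of the minus strand, had 6.67 and 8.39 FPKM, 58.7 and 80.6 FPKM, and 36.5 and 66.5 FPKM. Its log2 ratios after CFA were 0.33 with LacZ, 0.46 with HDAC4 wt and 0.86 with HDAC4 3SA. The large HDAC4 wt ratio of 2.27 belongs to the first locus, on the other strand. For 36 of the 37 genes the locus used lay on the gene's own strand, as inferred from the order of loci in the tables.

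Other genes of the pathway were read from lists of known members. The transcription factors that sit on class II promoters (Rfx5, Rfxank, Nfyb, Nfyc and their partners) had a median log2 ratio between -0.07 and 0.01 after CFA with all vectors, with 0 of 6 called. Of 6 proteases and helpers of the endosome, which trim class II ligands and the invariant chain, 1 was called higher after CFA with LacZ, 0 with HDAC4 wt and 5 with HDAC4 3SA. Ctss, the protease that removes the last of the invariant chain, had 58.0 and 65.7 FPKM with LacZ, 520.4 and 686 FPKM with HDAC4 wt and 365 and 719 FPKM with HDAC4 3SA. Of 5 chaperones and trimming enzymes of class I assembly, among them Calr and Canx, 0 were called after CFA with any vector. The co-stimulatory genes, such as Cd86 (0.559 and 0.807 FPKM with LacZ, 5.52 and 6.59 FPKM with HDAC4 wt, 3.48 and 7.10 FPKM with HDAC4 3SA), had 0, 0 and 3 of 4 called higher.

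Interferon-induced genes moved beside the MHC genes. Of 10 genes of the type I interferon response, 6 were called higher after CFA with LacZ (median log2 ratio 0.52), 6 with HDAC4 wt (0.54) and 10 with HDAC4 3SA (1.09). Irf7, its amplifying transcription factor, had 1.31 and 1.99 FPKM, 29.8 and 47.5 FPKM, and 21.3 and 49.95 FPKM. Of 5 GTPases induced by interferon γ, 3, 3 and 5 were called higher (0.72, 0.52 and 0.84), and after saline all 5 were higher with HDAC4 wt than with LacZ (3.98). Their highest member Gbp3 had 4.64 and 8.94 FPKM with LacZ, 86.1 and 147 FPKM with HDAC4 wt and 30.8 and 44.3 FPKM with HDAC4 3SA. The receptor and signalling genes of interferon γ, among them Jak1, Ifngr1 and Ifngr2, had medians of 0.03, 0.12 and 0.25 with 0, 0 and 2 of 7 called. The 2 included Irf1 (0.56), which after saline was 4.95-fold higher with HDAC4 wt than with LacZ. In that comparison Jak1 was at 0.941-fold, Ifngr1 at 1.86-fold and Ifngr2 at 1.19-fold.

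**Figure D4:**
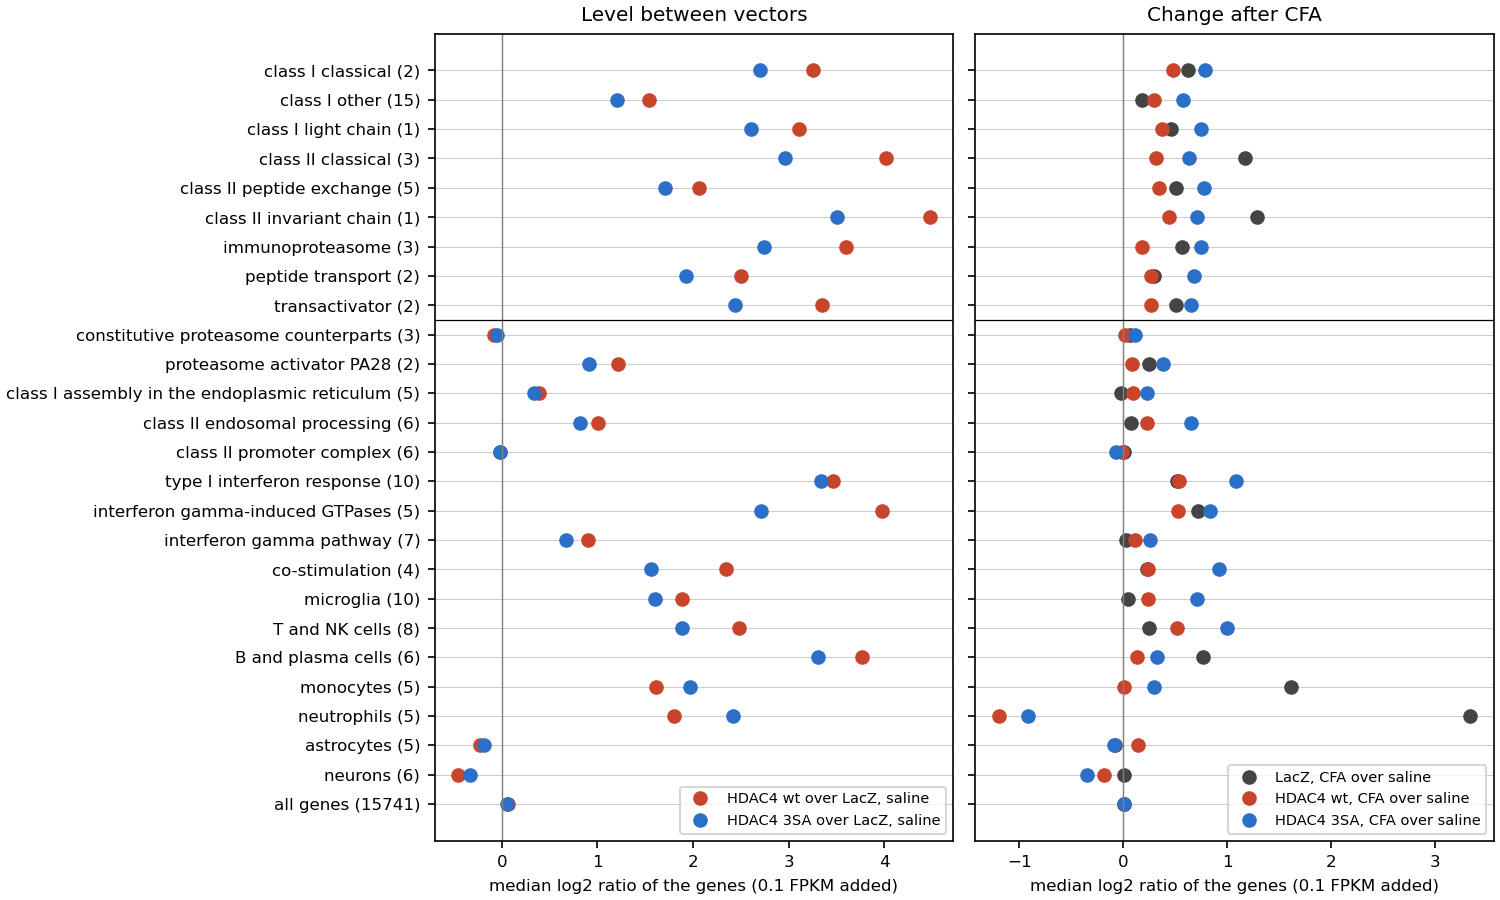
Median log2 ratio (x axis, 0.1 FPKM added) of the genes in each list (y axis, number of genes in brackets, antigen presentation genes above the black line), for the HDAC4 vectors over LacZ after saline on the left and for CFA over saline on the right. Classical class II genes are at 4.02 and the type I interferon response at 3.47 for HDAC4 wt over LacZ, with all genes at 0.07.

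Markers of the cells that the tissue could hold moved as well, and in bulk tissue more cells of a type and more RNA per cell cannot be told apart. The 10 microglial markers had a summed level of 160.1 and 175 FPKM with LacZ, 776 and 972 FPKM with HDAC4 wt and 598 and 1077 FPKM with HDAC4 3SA. After CFA 0, 0 and 7 of the 10 were called higher (medians 0.04, 0.24 and 0.71), so that with LacZ the classical class II chains moved by 1.17 while microglial markers stayed at 0.04. The geometric mean of the class II chains over that of the microglial markers was 0.757 and 1.65 with LacZ, 3.74 and 4.04 with HDAC4 wt and 2.13 and 2.11 with HDAC4 3SA. For classical class I genes the same ratio was 3.60 and 5.33, 9.77 and 11.6, and 7.79 and 8.60.

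Markers of blood leukocytes differed between the vectors in another way. With LacZ 5 of 5 neutrophil markers (median 3.34), 4 of 5 monocyte markers (1.62) and 4 of 6 markers of B and plasma cells (0.77) were called higher after CFA. With HDAC4 wt the medians were -1.19, 0.01 and 0.14, and with HDAC4 3SA -0.91, 0.30 and 0.33, and 3 and 5 of the 5 neutrophil markers were called lower. The summed B and plasma cell level was 1.29 and 3.23 FPKM with LacZ, 299.8 and 319 FPKM with HDAC4 wt and 193 and 259.9 FPKM with HDAC4 3SA. In the HDAC4 groups most of it came from Jchain, the joining chain of secreted antibodies (167 to 282 FPKM, against 0.205 and 0.289 FPKM with LacZ). T and NK cell markers, among them Cd3g and Nkg7, were called higher after CFA in 3, 4 and 8 of 8 cases. After saline 8 of 8 were higher with HDAC4 wt and with HDAC4 3SA than with LacZ, against 15.7% and 12.6% of all genes. Most of the 8, such as Cd3g (0.0987 and 0.182 FPKM) and Cd4 (0.0708 and 0.0937 FPKM), lay below 0.5 FPKM in both LacZ groups. These were kept only through the HDAC4 groups, so that the minimum itself favoured a higher level there. Of 5 astrocyte markers 0 were called after CFA with any vector, Gfap having 389 and 415 FPKM with LacZ and 805 to 1094 FPKM in the HDAC4 groups. After saline Aqp4 was also higher with HDAC4 wt than with LacZ (196 against 129 FPKM). Gja1 (102 against 119 FPKM), Gjb6 (38.6 against 49.4 FPKM) and the remaining marker were lower. The summed neuronal marker level was 2206 and 2156 FPKM with LacZ and between 1379 and 1588 FPKM in the HDAC4 groups. Most of the LacZ sum came from Snap25 (1227 and 1135 FPKM). Syt1 alone was not lower with HDAC4 wt (90.8 FPKM) than with LacZ (86.2 FPKM) after saline. The part of these cells in the MHC values was not tested.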

How the data were processed

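Dorsal spinal cord RNA of 18 mice in 6 groups was sequenced by the authors from strand-specific libraries of poly-A RNA. The submitters' processing notes name Bowtie, TopHat, Cufflinks and Cuffdiff and the builds mm10 and GRCm38. The deposited tables, 1 per vector with 34579 loci, hold FPKM values that the authors estimated with Cuffdiff, 1 value per group. Their columns of log2 fold change, test statistic, p-value and q-value are the authors' own comparison and were not used. Neither counts nor depths per library are in these columns, so no precision can be given. Tests planned for values per mouse gave way to the route planned for group values, which has no test.

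Loci were matched by identifier and 386 whose name or place differed between tables were left out. Ratios are log2(FPKM + 0.1), computed with Python 3.11.15, pandas 2.3.3 and numpy 2.4.6, and the calculation was tested on simulated data. Genes may be named where they are members and reach 0.5 FPKM on average, or among the 4 highest of a list. In all, 22 lists of pathway and cell type genes with 140 names (132 found) were read, and the result of 1 list is not reported here. The members and lists were chosen with earlier results of these data known. Exons and shared 50-base windows come from GENCODE M21 and promoters from RefSeq. Alternatives were the FPKM added, the minimum level, the centring, the rows summed and the threshold; 2 others, on the locus of H2-T23 and on partly covered loci, were added after seeing the data.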

Additional observations from a re-analysis of the deposited data

How the results depend on the processing

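Each gene has 1 value per group, which bounds every statement: no spread between mice is known, and at low levels the added constant sets the ratio. No paired analysis was possible because the columns carry 1 value per group and no replicate, and leaving out single mice was not possible for the same reason. Of 330 alternative values, 277 kept their direction and stayed within 0.1 (log2) or 1.5 times (counts) of the reported value. Centring on genes above 5 FPKM moved none beyond that. The causes of the changes below were not tested, except where the setting itself adds or removes genes.

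With 1 FPKM added, HDAC4 wt mice had 3 genes called higher after CFA. The LacZ medians after CFA became 0.19 (class I) and 0.51 (class II). Over LacZ after saline they became 1.36 and 1.65 for HDAC4 wt and 0.93 and 1.26 for HDAC4 3SA, and after CFA 2.54 and 1.67, and 1.37 and 1.60. The classical class II minus class I difference over LacZ after saline became 0.72 and 0.24. With 0.01 FPKM added, the medians over LacZ after saline became 2.38 and 3.69 for HDAC4 wt and 1.89 and 2.96 for HDAC4 3SA.

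With no minimum level, which adds H2-Eb2, H2-M1 and H2-M5, the LacZ class II median after CFA became 0.58 and the classical difference 0.29. Over LacZ after saline the HDAC4 wt medians became 1.54 and 3.07 and the classical difference 0.33, and for HDAC4 3SA the class II median became 2.60 and the difference 0.0022. After CFA the HDAC4 wt medians became 1.74 and 2.23, the classical difference turned from 0.17 to -0.19, and that of HDAC4 3SA became -0.53. H2-M1 was then the 1 gene called higher with HDAC4 3SA than with HDAC4 wt, 1 after saline and 1 after CFA. With a minimum of 2 FPKM the class I medians after CFA became 0.29 with LacZ and 0.74 with HDAC4 3SA. Over LacZ they became 2.29 (HDAC4 wt, saline), 1.85 (HDAC4 3SA, saline) and 2.13 (HDAC4 3SA, CFA).

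Summing the rows of a name gave a class I median of 2.12 for HDAC4 3SA over LacZ after CFA. Beyond a log2 ratio of 1, the genes called higher after CFA numbered 8, 1 and 2 with LacZ, HDAC4 wt and HDAC4 3SA, and those lower with HDAC4 3SA than with HDAC4 wt 4 after saline and 2 after CFA. Shares of all genes were computed only at 0.5, so that these counts have no share beside them. With the other H2-T23 locus, the class I medians over LacZ became 3.03 (HDAC4 wt, saline), 2.43 (HDAC4 3SA, saline) and 2.68 (HDAC4 3SA, CFA). With only loci that hold at least 50% of the exon bases, the medians after CFA became 0.29 and 0.58 with LacZ and the class I median 0.46 with HDAC4 wt. Over LacZ they became 2.29 and 3.37 for HDAC4 wt and 1.85 and 2.84 for HDAC4 3SA after saline, with 3.09 for class II with HDAC4 wt and 2.13 for class I with HDAC4 3SA after CFA.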

Other observations

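A few of the 34 genes departed from their class. H2-M2, a rarely described class I gene of the M region, was at 0.0163 and 0.0317 FPKM with LacZ, 2.88 and 4.99 FPKM with HDAC4 wt and 0.912 and 1.34 FPKM with HDAC4 3SA. H2-Bl, a class I gene of the T region, was lower after CFA with every vector, at 3.88 and 3.44 FPKM with LacZ, 3.06 and 2.57 FPKM with HDAC4 wt and 3.68 and 2.64 FPKM with HDAC4 3SA, without passing the threshold. H2-DMa over H2-Ab1 was 0.610 in LacZ saline and 0.0981 in HDAC4 wt CFA, so that the peptide exchange gene did not keep step with the class II chain.

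Itgax, which encodes the integrin CD11c, had 0.323 and 0.411 FPKM with LacZ, 15.8 and 19.9 FPKM with HDAC4 wt and 11.6 and 25.9 FPKM with HDAC4 3SA. Among the other dendritic cell markers read, Batf3 had 1.32 and 1.41 FPKM with LacZ, 2.41 and 2.50 FPKM with HDAC4 wt and 1.47 and 2.21 FPKM with HDAC4 3SA. Flt3 had 5.83 and 5.31 FPKM with LacZ, 3.34 and 3.61 FPKM with HDAC4 wt and 4.59 and 4.21 FPKM with HDAC4 3SA, and Zbtb46 stayed between 2.35 and 2.61 FPKM. Of 6 markers of perivascular and meningeal macrophages, 1, 0 and 1 were called higher after CFA with LacZ, HDAC4 wt and HDAC4 3SA. In the same order, calls of a higher level numbered 0, 0 and 2 of 4 for dendritic cell markers, 0, 0 and 1 of 6 for endothelial markers, 2, 0 and 0 of 5 for meningeal fibroblast markers and 0, 0 and 0 of the 2 genes of the proteasome activator PA28. Of 4 MHC-like molecules outside the H2 names, calls of a higher level after CFA numbered 0, 0 and 1 in that order, the last being Hfe (log2 ratio 0.50). Over LacZ after saline, Hfe was called higher with HDAC4 wt (0.85) and HDAC4 3SA (0.60), Mr1 was called higher with HDAC4 wt (0.54), and Cd1d1 was called lower with both (-0.56 and -0.74). Cd1d1 lay between 1.12 and 1.94 FPKM in all groups and Fcgrt between 15.7 and 21.8 FPKM.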
